A study of Mus musculus with 32 samples.

Results

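*Prickle1*, *Cidea*, *Apobec2* and *Trh* are 4 of the 51826 genes in the table of gene counts, and were chosen because their RNA was strongly higher in ES cells that lack *Rbpj* than in the cells those lines were made from. No numerical threshold was set for that choice. All 4 were among the 18892 genes with enough counts to be tested. Because the comparisons of RbpJ mutants with control cells chose the genes, the values of those comparisons are given as a description without a test, and tests are given only for other comparisons. Comparisons between groups of RbpJ mutants use the libraries in which the genes were chosen to be high, and are also described without a test. All 5 RGd2 conditions were controls in the choice, so tests that involve RGd2 share libraries with it, and their p-values are not independent of it.

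The cells were mouse ES cells of RGd2, a line with a destabilized GFP reporter at the *Rex1* locus, and deletion mutants made in RGd2 with CRISPR-Cas9, so that every group carries the reporter. RGd2 was sampled in 2i (N2B27 medium with the GSK3 inhibitor CHIR99021 and the MEK inhibitor PD0325901), in N2B27 without inhibitors for 16 h or 72 h (N16h and N72h), in 2i for 5 passages (2i-p5) and in CHIR99021 alone, called Chiron, for 2 passages (CH-p2). RbpJ-KO and Etv5-KO cells were sampled in 2i and at N16h, double mutants of *Etv5* and RbpJ (ER-dKO) at passage 5 in Chiron (CH-p5) and triple mutants of *Etv5*, *Tcf3* and RbpJ (ETR-tKO) at passage 5 in N2B27 alone (N-p5). *Tcf3* is the paper's name for the gene *Tcf7l1*. Per the paper's methods, lines were routinely kept in Chiron with the cytokine LIF and moved to 2i shortly before an assay. A figure legend of the paper marks the RNA samples so treated, and the sample labels do not say which they were. There were 3 libraries of each condition, but 2 of Etv5-KO at N16h. The study's methods instead name RGd2 at N16h as the condition with a library missing. The sample labels were followed, and this conflict bears on every N16h comparison. Each mutant library of a condition came from a different clonal line. By contrast, each RGd2 condition has 2 libraries of the parental line and 1 of a clonal line derived from it. The paper's methods describe the knockout lines as independently derived. The line labels of ETR-tKO replicates 14 and 15, (Tc1)ERc2 and (Tc1)ERc10, share a prefix that replicate 13, (ETc1)Rc53, lacks. These lines may therefore not be fully independent.

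RBPJ is the DNA-binding factor of the Notch pathway. Bound by the cleaved intracellular part of a Notch receptor it activates transcription, and without it RBPJ recruits corepressors to the same sites, so that some target genes gain RNA when RBPJ is removed. *Prickle1* encodes a cytoplasmic LIM-domain protein of the planar cell polarity pathway. *Cidea* encodes a protein of the lipid droplet surface that promotes droplet growth and is widely used as a marker of brown fat. *Apobec2* encodes a member of the AID/APOBEC family of cytidine deaminase-related proteins that is known from skeletal and heart muscle. *Trh* encodes the precursor of thyrotropin-releasing hormone, a peptide made by hypothalamic neurons.

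RefSeq promoter windows of GRCm38.p6 (250 bases before to 50 bases after a transcription start) matched 3 of the 4 genes (*Trh*, *Prickle1* and *Apobec2*), with 2 windows for *Prickle1* and none for *Cidea*. The 250 bases before each start, all on the minus strand, are shown in the direction of transcription, because a group of genes with higher RNA in RbpJ mutants raises the question of whether they share letters that RBPJ is known to bind. The capitals mark the RBPJ-type letters found.
Trh, chr6:92244651-92244900: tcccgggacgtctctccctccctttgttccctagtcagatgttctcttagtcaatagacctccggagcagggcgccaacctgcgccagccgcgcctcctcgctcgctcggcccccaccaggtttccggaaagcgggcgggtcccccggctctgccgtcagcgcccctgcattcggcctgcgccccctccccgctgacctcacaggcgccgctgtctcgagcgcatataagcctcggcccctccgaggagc
Prickle1, chr15:93595903-93596152: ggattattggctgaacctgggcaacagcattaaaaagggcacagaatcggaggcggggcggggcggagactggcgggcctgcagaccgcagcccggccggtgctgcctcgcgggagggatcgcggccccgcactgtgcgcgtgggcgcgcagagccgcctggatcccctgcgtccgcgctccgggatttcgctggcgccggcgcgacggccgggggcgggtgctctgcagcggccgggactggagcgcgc
Prickle1, chr15:93519521-93519770: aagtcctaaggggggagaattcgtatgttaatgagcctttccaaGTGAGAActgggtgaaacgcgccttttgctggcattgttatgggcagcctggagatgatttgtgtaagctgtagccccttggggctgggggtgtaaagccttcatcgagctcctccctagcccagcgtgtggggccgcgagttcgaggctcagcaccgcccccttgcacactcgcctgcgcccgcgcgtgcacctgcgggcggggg
Apobec2, chr17:48432729-48432978: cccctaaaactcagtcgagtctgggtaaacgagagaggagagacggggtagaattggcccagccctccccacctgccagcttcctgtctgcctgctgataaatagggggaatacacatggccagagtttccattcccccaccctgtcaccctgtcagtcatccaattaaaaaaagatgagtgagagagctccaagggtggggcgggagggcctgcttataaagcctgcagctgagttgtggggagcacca

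The searched RBPJ-type letters were TGGGAA, its longer form GTGGGAA (every GTGGGAA also holds TGGGAA) and the variant GTGAGAA, on both strands of the 300-base windows. TGGGAA and GTGGGAA were in none of the 4 windows, whereas 25.6% and 6.38% of the 32851 mouse windows of the same length held them. GTGAGAA, held by 4.59% of all windows, was found once, at position −206 from the downstream start of *Prickle1*. The ETS-type letters CCGGAAG (8.86% of all windows) and the TCF-type letters CTTTGAT (3.73%) were also not in these windows. Only these exact letters were searched. The shorter CCGGAA is in the *Trh* sequence shown, and its share of all windows was not computed. A match or its absence describes these letters in these windows and not binding. The windows of *Trh* and of the upstream *Prickle1* start were rich in G and C, at 68.8% and 74% of the 250 bases shown, against 55.2% for *Apobec2*.

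The genes lie on different chromosomes. In the GRCm38/mm10 coordinates of the count table, *Prickle1* (ENSMUSG00000036158.12) spans chromosome 15, 93499114 to 93595891, on the minus strand, and *Cidea* (ENSMUSG00000024526.8) chromosome 18, 67343564 to 67367794, on the plus strand. *Apobec2* (ENSMUSG00000040694.3) spans chromosome 17, 48419231 to 48432728, on the minus strand, and *Trh* (ENSMUSG00000005892.4) chromosome 6, 92242061 to 92244650, on the minus strand. *Cidea* overlaps the antisense gene *B430212C06Rik* by 540 bases. Counting used strand, and *B430212C06Rik* had at most 16 counts in any library.

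The levels of the 4 genes differed greatly from each other and across conditions (FPKM, counts scaled to gene length and to the total on genes). *Trh* was the most abundant. Its mean of 1491 FPKM ± 60.7 (SD, n = 3) in ER-dKO made it the 14th highest of 26785 genes with any count there, and its lowest mean was 23.6 ± 1.30 (SD, n = 3) in Etv5-KO in 2i. *Apobec2* ranged from 49.9 ± 0.657 (SD, n = 3) in RbpJ-KO in 2i to 0.367 ± 0.0851 (SD, n = 3) in RGd2 at N72h. *Prickle1* ranged from 36.3 ± 7.53 (SD, n = 3) in ETR-tKO to 0.422 ± 0.0246 (SD, n = 3) in RGd2 at N16h. *Cidea* ranged from 29.8 ± 3.00 (SD, n = 3) in ER-dKO to 0.0977 ± 0.0280 (SD, n = 3) in RGd2 at N72h, where its libraries had only 2 or 3 counts.

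**Figure D1:**
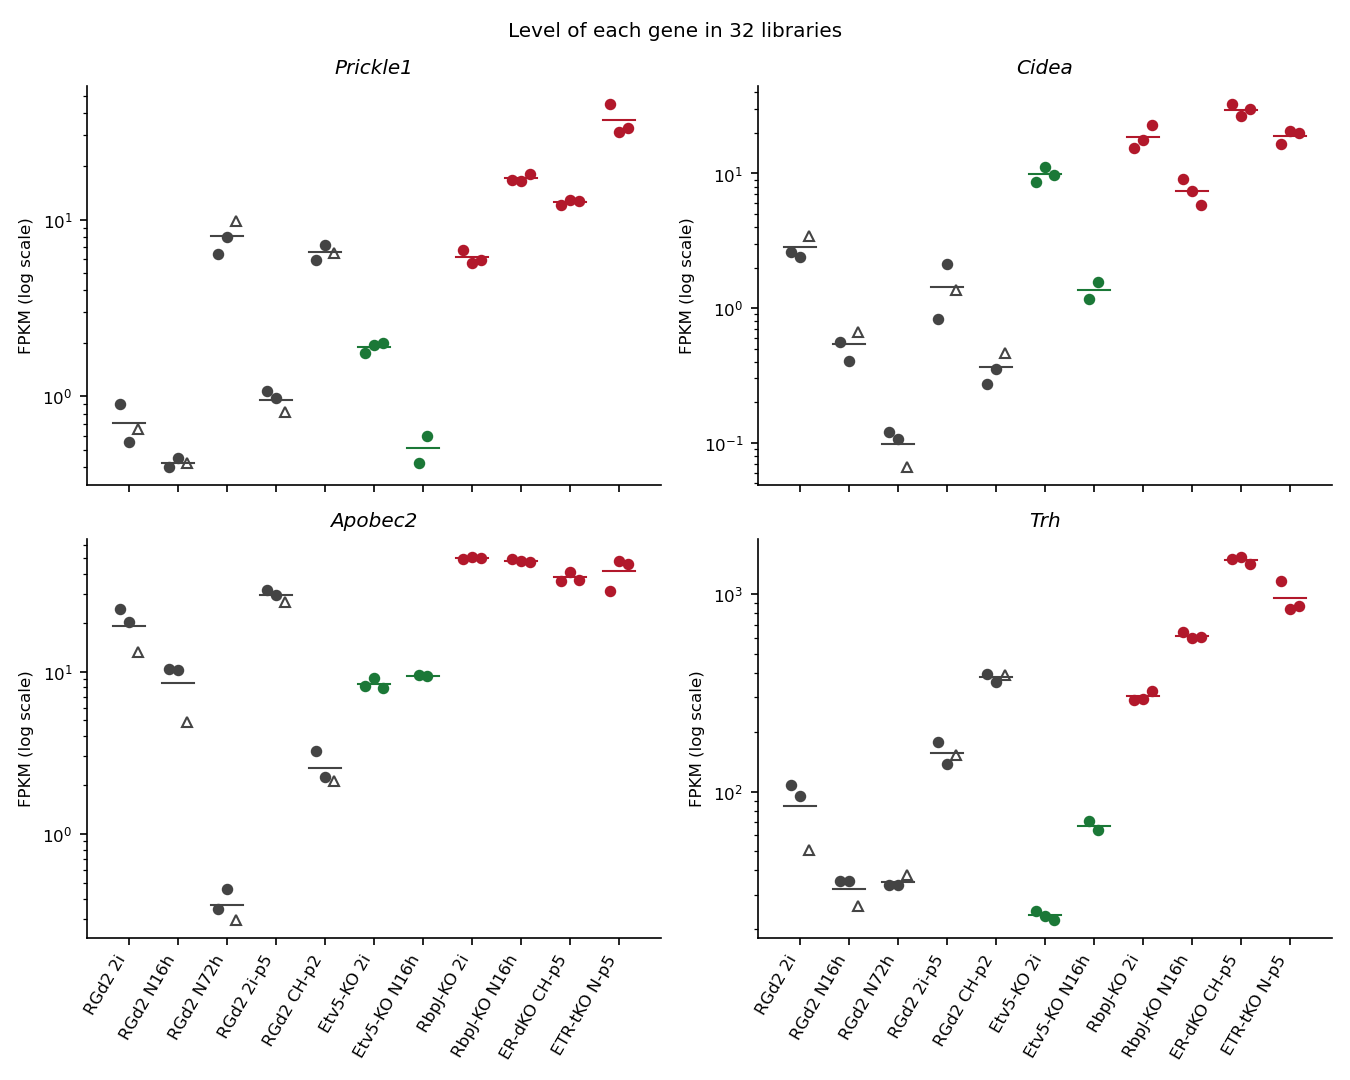
Level of each gene (FPKM, logarithmic axis) in each of the 32 libraries, grouped by condition, with RGd2 in grey, Etv5-KO in green and RbpJ mutants in red. Horizontal lines are means and open triangles the clonal RGd2 line. The 12 RbpJ mutant libraries held *Apobec2* between 31.3 and 50.5 FPKM. RGd2 libraries ran from 0.295 to 31.9 and Etv5-KO libraries from 7.93 to 9.47. The gene was chosen for being high in RbpJ mutants, so these ranges are a description.

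In order of their FPKM means, the 4 RbpJ mutant conditions took the first 4 places only for *Apobec2*. There, the ranges of RbpJ-KO in 2i, RbpJ-KO at N16h, ETR-tKO and ER-dKO each overlapped the next. Across the 12 RbpJ mutant libraries the highest *Apobec2* level was 1.61 times the lowest. Across the 15 RGd2 libraries it was 108 times the lowest. A narrow range was also seen over the 5 Etv5-KO libraries, at 7.93 to 9.47 FPKM, where the ratio was 1.19. The RGd2 libraries include N72h, a condition in which no RbpJ mutant was sampled and *Apobec2* was lowest, and CH-p2, at 2.10 to 3.26 FPKM. In 2i, 2i-p5 and N16h alone they ran from 4.87 to 31.9 FPKM. For *Prickle1* the same ratio was 7.87 in RbpJ mutants and 24.6 in RGd2, for *Cidea* 5.61 and 52.0, and for *Trh* 5.26 and 14.99. The genes were chosen for being high in RbpJ mutants, which selects against low mutant levels. All these ratios are therefore descriptions that are not independent of the choice. For *Prickle1*, the order after the first 3 places was RGd2 at N72h, RGd2 CH-p2 and RbpJ-KO in 2i, and the ranges of these neighbours overlapped. Thus RbpJ-KO cells in 2i, at 6.11 ± 0.560 FPKM (SD, n = 3), held *Prickle1* near the 6.53 ± 0.664 (SD, n = 3) of RGd2 CH-p2, and no interval of that difference was computed. For *Trh*, RGd2 CH-p2 was at rank 4, above RbpJ-KO in 2i with no overlap. For *Cidea*, Etv5-KO in 2i was at rank 4, with 9.84 ± 1.30 FPKM (SD, n = 3), with a range that overlapped that of RbpJ-KO at N16h.

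The targeted gene was lower in RbpJ-KO than in RGd2 in every library of the same condition. The normalised *Rbpj* count, scaled by the spike-ins, was in 2i between 976 and 1249 for RbpJ-KO and between 3981 and 5097 for RGd2. At N16h it was 2497 to 2797 in RbpJ-KO against 12327 to 12766 in RGd2. In Etv5-KO it was 4728.5 to 4990 in 2i, within the RGd2 range, but 19050 and 19748 at N16h, above the RGd2 libraries there. In ETR-tKO it was 1559 to 2348, below all RGd2 libraries. In ER-dKO it was 1138 and 1307 in replicates 10 and 11 but 3489 in the library labelled ER-dKO replicate 12, which is above the RGd2 2i-p5 libraries (2830 to 3385) and below the RGd2 CH-p2 libraries (3814 to 4338). Per the paper's methods, a pair of gRNAs was aimed at different exons of each targeted gene, and the counts cover whole genes. Which exons the counts left in the mutants come from, and why ER-dKO replicate 12 is higher, was not tested. Libraries had 5986857 to 71439411 counts on genes, RGd2 2i replicate 33 being the lowest, and 0.991% to 1.52% of counts fell on spike-ins. Of the 8 markers of ES cell identity all had a mean of at least 1 FPKM in every condition except RGd2 N72h, where 7 did. Their summed level was 1273 to 1433 FPKM in RGd2 in 2i, but 704 to 725 in RGd2 CH-p2 and 594 to 626 in RGd2 N72h. The lowest condition means were 272 FPKM for *Pou5f1*, 34.0 for *Sox2*, 11.6 for *Zfp42*, 5.83 for *Esrrb*, 2.71 for *Tfcp2l1* and 0.876 for *Klf4*. Because the RNA came from whole cultures, a change in the share of cells with a transcript and a change in its amount per cell cannot be told apart.

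The RbpJ-KO comparisons that chose the genes gave the following values. In 2i, *Prickle1* was at 0.907, 0.548 and 0.654 FPKM in RGd2 and at 6.75, 5.71 and 5.87 in RbpJ-KO. *Cidea* was at 2.62, 2.405 and 3.44 FPKM in RGd2 and at 15.5, 17.7 and 22.8 in RbpJ-KO. Each RbpJ-KO library was above each RGd2 library for both genes, and the log2 fold changes of the normalised counts were 2.96 (SE 0.19) for *Prickle1* and 2.72 (SE 0.20) for *Cidea*. *Apobec2* was at 24.2, 20.1 and 13.2 FPKM in RGd2 and at 49.2, 50.5 and 49.9 in RbpJ-KO. *Trh* was at 108, 95.05 and 50.7 FPKM in RGd2 and at 292, 296 and 324 in RbpJ-KO. Again no library overlapped, but the log2 fold changes were smaller, at 1.23 (SE 0.21) for *Apobec2* and 1.73 (SE 0.18) for *Trh*. The lowest RGd2 library for both was that of the clonal line. Without the libraries of the clonal RGd2 line, which were left out after these values had been seen, the log2 fold changes were 1.01 (SE 0.15) for *Apobec2* and 1.42 (SE 0.12) for *Trh*.

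At N16h all 4 differences were wider. *Prickle1* was at 0.400, 0.449 and 0.419 FPKM in RGd2 and at 16.8, 16.6 and 18.0 in RbpJ-KO, a 43.5-fold difference in normalised counts. *Trh* was at 35.2, 35.2 and 26.4 FPKM in RGd2 and at 642, 599 and 608 in RbpJ-KO, or 4.36 (SE 0.20) as a log2 fold change. These were the 6th and 32nd highest log2 fold changes of the 18892 genes tested, which is a property of the choice and not a finding. *Cidea* was at 0.556, 0.405 and 0.670 FPKM in RGd2 and at 9.10, 7.47 and 5.84 in RbpJ-KO, with a log2 value of 3.94 (SE 0.24) for the difference. *Apobec2* was at 10.3, 10.2 and 4.87 FPKM in RGd2 and at 49.3, 47.7 and 47.1 in RbpJ-KO, 2.58 (SE 0.21) on the log2 scale. For all 4 genes the lowest RbpJ-KO library was above the highest RGd2 library in both conditions, as it was for 7.33% of all genes tested in 2i and 31.4% at N16h.

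The double and triple mutants were higher than RGd2 for each gene in every pairing, with widths that depended on the RGd2 culture. Against RGd2 2i-p5, the log2 fold change of *Apobec2* was 0.63 (SE 0.20) in ER-dKO and 0.75 (SE 0.20) in ETR-tKO, where RGd2 2i-p5 held 31.9, 29.6 and 26.8 FPKM. The ER-dKO libraries held 36.005, 41.3 and 36.8, and the ETR-tKO libraries 31.3, 48.0 and 46.0. On the FPKM scale the lowest ETR-tKO library was thus within the RGd2 range, while on the spike-in scale the groups did not overlap. Against RGd2 CH-p2, with 3.26, 2.24 and 2.10 FPKM, the same ER-dKO libraries gave a log2 fold change of 4.05 (SE 0.26). *Cidea* in ER-dKO, at 32.7, 26.8 and 30.0 FPKM, had a log2 fold change of 4.54 (SE 0.22) against RGd2 2i-p5 and of 6.48 (SE 0.28) against RGd2 CH-p2. For *Prickle1* the order was the reverse, with 3.99 (SE 0.19) against RGd2 2i-p5 and 1.07 (SE 0.16) against RGd2 CH-p2, where RGd2 CH-p2 itself held 5.89, 7.21 and 6.49 FPKM. *Trh* in ER-dKO was at 1514, 1537 and 1422 FPKM, with log2 fold changes of 3.51 (SE 0.19) against RGd2 2i-p5 and 2.09 (SE 0.18) against RGd2 CH-p2. Against RGd2 N72h, ETR-tKO had log2 fold changes of 2.34 (SE 0.16) for *Prickle1*, 7.10 (SE 0.32) for *Apobec2* and 4.95 (SE 0.21) for *Trh*. *Cidea* had 2223 counts over the ETR-tKO libraries and 8 over the RGd2 N72h libraries, a ratio of 235 after scaling by the spike-ins, with a 95% exact interval of 119 to 546 for counting error only. In these pairings the 4 genes did not overlap between groups in the higher direction, as was the case for 39.2% of all genes tested for ER-dKO and for ETR-tKO against RGd2 2i-p5, 29.8% for ER-dKO against RGd2 CH-p2 and 33.8% for ETR-tKO against RGd2 N72h. Without the library labelled ER-dKO replicate 12, the log2 fold changes of ER-dKO were 3.96 for *Prickle1*, 4.52 for *Cidea*, 0.63 for *Apobec2* and 3.53 for *Trh* against RGd2 2i-p5, and 1.04, 6.46, 4.05 and 2.11 against RGd2 CH-p2. *Etv5* is also deleted in both mutants, and *Tcf3* in ETR-tKO. Medium differs in the pairings with RGd2 2i-p5, and time in culture in those with RGd2 CH-p2 and RGd2 N72h. The parts of each deletion, the medium and the time in these values cannot be told apart.

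The first tested question was how the genes behave in control cells as they leave the naive state. In RGd2, *Cidea*, *Apobec2* and *Trh* fell between 2i and N16h (3 of 4 genes called lower by edgeR's quasi-likelihood test, against 23.2% of all genes tested). The log2 fold change was −2.598 (SE 0.26, adjusted p = 1.31e-10) for *Cidea*, −1.66 (SE 0.18, adjusted p = 7.11e-10) for *Trh* and −1.46 (SE 0.21, adjusted p = 5.07e-07) for *Apobec2*. *Prickle1* had a log2 fold change of −1.04 (SE 0.22, adjusted p = 0.000201), but it was under 1 FPKM in both conditions and did not meet the expression minimum of a call. The RGd2 libraries in both conditions also served the comparisons that chose the genes. A low level in RGd2 at N16h helps a gene to be chosen, so this decline is not independent of the choice.

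Between N16h and N72h the genes parted. *Prickle1* rose from the 3 values near 0.4 FPKM given above to 6.39, 7.95 and 9.83, a log2 fold change of 4.21 (SE 0.19, adjusted p = 3.94e-21, edgeR). *Apobec2* fell to 0.343, 0.461 and 0.295 FPKM, by 4.68 on the log2 scale (SE 0.34, adjusted p = 4.80e-15). Neither pair of groups overlapped, and 1 of 4 genes called higher and 1 of 4 called lower stand beside 20.3% and 19.2% of all genes tested. *Trh* overlapped between the groups, at 33.6, 33.5 and 37.6 FPKM, with a log2 fold change of 0.07 (95% interval −0.28 to 0.42, adjusted p = 0.775), a value whose sign turned when the N16h library of the clonal line was left out (−0.07). *Cidea* had 62 counts over the N16h libraries and 8 over the N72h libraries, a ratio of 5.93 after scaling by the spike-ins, with a 95% exact interval of 2.83 to 14.3 for counting error only. It was under 1 FPKM in both conditions and so was not called.

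In RbpJ-KO, *Prickle1* and *Trh* were higher and *Cidea* was lower at N16h than in 2i. Both groups were used in choosing the genes, so these values are a description without a test. The same 3 clonal lines, c28, c33 and c36, were sampled in 2i and at N16h. *Prickle1* was higher at N16h in all 3 lines, by 2.27, 2.83 and 3.10 times in normalised counts, and its log2 fold change was 1.44 (SE 0.16). *Trh* was higher in all 3, by 2.00, 1.98 and 1.90 times, a log2 fold change of 0.97 (SE 0.17). *Cidea* was lower in all 3, with a log2 fold change of −1.38 (SE 0.18) and 2i levels of 1.87, 2.43 and 3.86 times those at N16h. *Apobec2* had a log2 fold change of −0.11 (95% interval −0.49 to 0.28), with N16h levels of 0.912, 0.921 and 0.955 times those in 2i in the 3 lines. The response of RbpJ-KO minus that of RGd2 was 2.48 for *Prickle1*, 2.63 for *Trh*, 1.35 for *Apobec2* and 1.22 for *Cidea* on the log2 scale. These 4 values are differences of the comparisons that chose the genes.

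**Figure D2:**
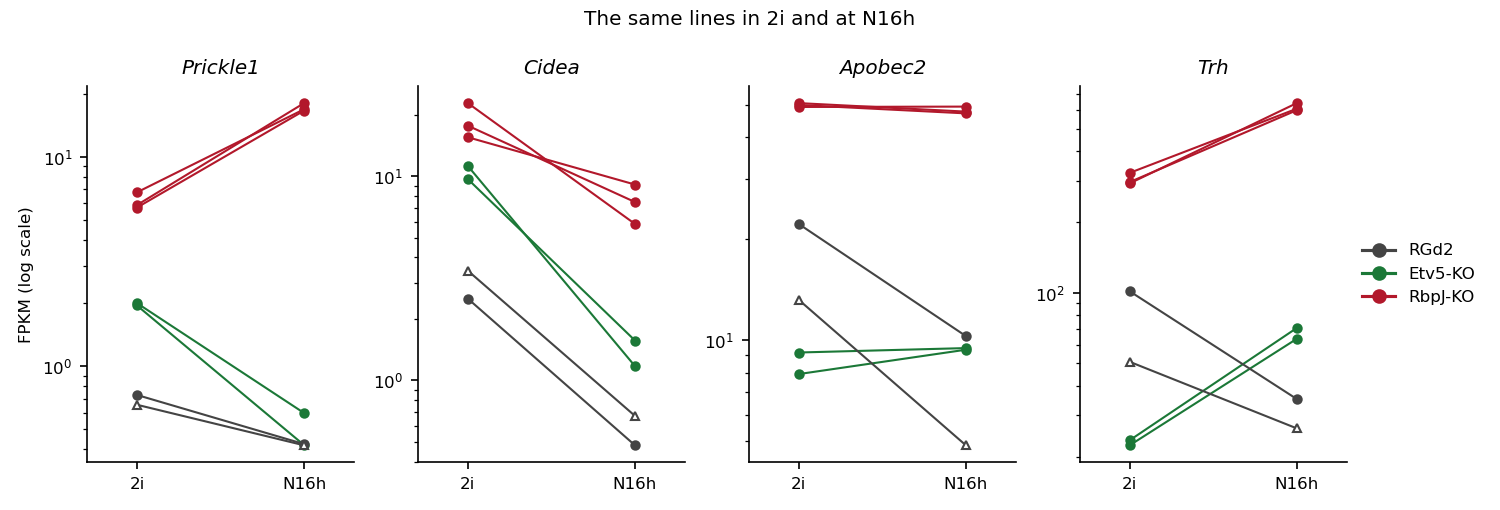
Level of each gene (FPKM, logarithmic axis) in the same lines in 2i and at N16h, with RGd2 in grey (circles, mean of 2 parental libraries, and triangles, the clonal line), Etv5-KO lines c1 and c17 in green and RbpJ-KO lines in red. *Prickle1* and *Trh* are higher at N16h in each RbpJ-KO line, by 1.90 to 3.10 times in normalised counts, and *Cidea* declines in all lines drawn.

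In Etv5-KO, where a different transcription factor was deleted and *Rbpj* was not, the 4 genes did not move in a common direction in 2i. *Prickle1* was at 1.76, 1.95 and 2.00 FPKM and *Cidea* at 8.63, 11.2 and 9.68, both above all RGd2 libraries. *Apobec2* was at 8.12, 9.18 and 7.93 FPKM and *Trh* at 24.9, 23.5 and 22.3, both below all RGd2 libraries. The log2 fold changes against RGd2 were 1.18 (SE 0.19, adjusted p = 8.70e-06, edgeR) for *Prickle1* and 1.68 (SE 0.20, adjusted p = 2.25e-08) for *Cidea*. *Apobec2* was lower by a log2 fold change of −1.44 (SE 0.21, adjusted p = 1.47e-06) and *Trh* by −2.06 (SE 0.18, adjusted p = 1.37e-11). Thus 2 genes were called higher, against 3.76% of all genes tested, and 2 lower, against 17.1%. The RGd2 libraries in 2i are shared with the comparison that chose the genes, and the lower direction of *Apobec2* and *Trh* is opposite to that choice.

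At N16h, *Cidea* was still higher in Etv5-KO, at 1.17 and 1.57 FPKM in its 2 libraries, with a log2 fold change of 1.60 (SE 0.29, adjusted p = 4.99e-05, edgeR). *Trh* was now higher too, at 70.6 and 63.5 FPKM against at most 35.2 in RGd2, with a log2 fold change of 1.25 (SE 0.19, adjusted p = 3.81e-06). So 2 of 4 genes were called higher, beside 18.2% of all genes tested. *Prickle1* had a log2 fold change of 0.48 (95% interval 0.01 to 0.94, adjusted p = 0.142) and *Apobec2* of 0.33 (95% interval −0.13 to 0.78, adjusted p = 0.336), and neither passed. The interval of *Prickle1* leaves out 0 only as a normal approximation, and its unadjusted p was 0.0514 (edgeR). These comparisons use the RGd2 N16h libraries, which were also used in choosing the genes.

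Within Etv5-KO, whose libraries had no part in the choice, *Trh* rose 3.13-fold between 2i and N16h (log2 fold change 1.65, SE 0.19, adjusted p = 6.31e-09, edgeR), in lines c1 and c17 by 3.49 and 3.15 times in normalised counts. *Cidea* fell by 2.68 on the log2 scale (SE 0.24, adjusted p = 4.49e-12) and *Prickle1* by 1.74 (SE 0.21, adjusted p = 1.62e-08). *Apobec2* was at 9.47 and 9.36 FPKM at N16h, with a log2 fold change of 0.31 (95% interval −0.15 to 0.77, adjusted p = 0.333). Of the 4 genes 1 was called higher and 2 lower, against 19.6% and 5.93% of all genes tested.

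The difference between the responses of Etv5-KO and RGd2 was itself tested. It contains the decline of RGd2 between 2i and N16h, and a low RGd2 level at N16h helps a gene to be chosen, so the choice favours higher values of this difference. It was 3.31 on the log2 scale for *Trh* (SE 0.27, adjusted p = 4.29e-12, edgeR) and 1.76 for *Apobec2* (SE 0.31, adjusted p = 5.57e-05). The spike-in scale moved all genes, the median over the comparisons lying between −0.37 and 0.47 where TMM scaling of edgeR set it near 0, and no direction of a tested value turned under TMM. For this difference the median was 0.47, so that relative to it the values were 2.84 and 1.30, and 23.8% of all genes were called in this direction. For *Cidea* the difference was −0.08 (95% interval −0.85 to 0.69, adjusted p = 0.898). For *Prickle1* it was −0.70 (SE 0.31, adjusted p = 0.0825) and did not pass. Under TMM scaling it was −1.22 (adjusted p = 0.00752), and it was also called without RGd2 2i replicate 31, at −1.18 (adjusted p = 0.00559), or without Etv5-KO N16h replicate 18, at −1.06 (adjusted p = 0.0448).

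**Figure D3:**
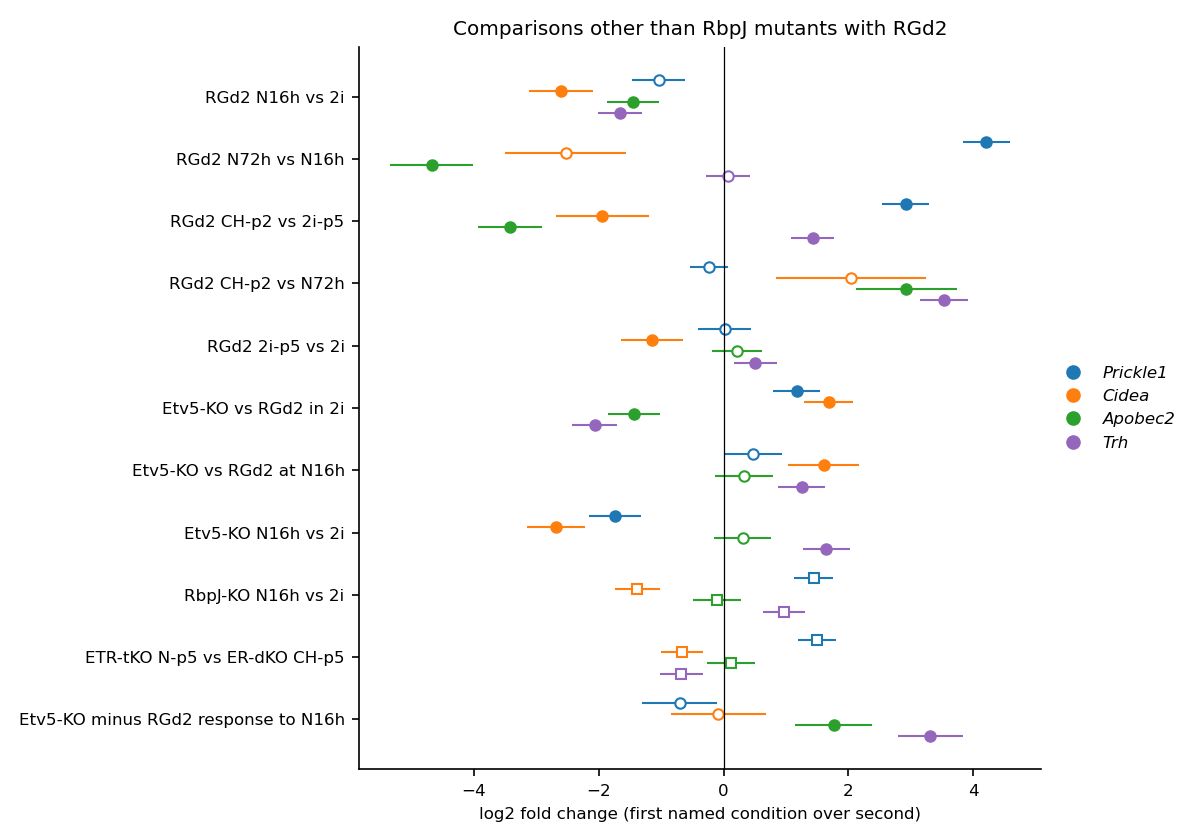
Log2 fold change of normalised counts (first condition over second) for the 4 genes in the 11 comparisons other than those of RbpJ mutants with RGd2, with 95% intervals. Filled points passed an adjusted p of 0.05 and a mean of 1 FPKM in either group, squares are comparisons between RbpJ mutants, which are described without a test, and the fitted value of *Cidea* at N72h rests on 8 counts. In Etv5-KO in 2i, *Prickle1* and *Cidea* lie to the right of 0 and *Apobec2* and *Trh* to the left.

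The comparison of RGd2 CH-p2 with RGd2 2i-p5 separated the genes in another way. Between RGd2 2i-p5 and RGd2 CH-p2, *Prickle1* rose (log2 fold change 2.92, SE 0.19, adjusted p = 7.86e-16, edgeR) and *Trh* rose from 178, 137 and 153 to 395, 360 and 389 FPKM (log2 fold change 1.43, SE 0.18, adjusted p = 1.50e-08). *Apobec2* fell by 3.42 (SE 0.26, adjusted p = 6.29e-14) and *Cidea* by 1.94 (SE 0.38, adjusted p = 6.99e-05) on the log2 scale. In all, 2 genes were called higher and 2 lower, beside 18.3% and 8.65% of all genes tested. All these RGd2 libraries also served as controls of the double mutants. Beside the medium, the passage number differed, at 5 for 2i-p5 and 2 for CH-p2. The ES cell identity markers summed to 1211 to 1270 FPKM in 2i-p5 and 704 to 725 in CH-p2. The paper groups CH-p2 with N72h and takes both to have left the ES cell state. The parts of medium, passage and cell state in these values cannot be told apart.

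RGd2 CH-p2 and RGd2 N72h are the cultures in which *Prickle1* was highest in control cells. Its log2 fold change between them was −0.23 (95% interval −0.54 to 0.07, adjusted p = 0.277, edgeR), and the groups overlapped. *Trh* was 11.6-fold higher in CH-p2 (log2 fold change 3.53, SE 0.19, adjusted p = 2.66e-18) and *Apobec2* 7.61-fold higher (log2 fold change 2.93, SE 0.41, adjusted p = 3.85e-07), 2 of 4 genes called higher beside 12.8% of all genes tested. *Cidea* had 19 counts over the CH-p2 libraries and 8 over the N72h libraries, a scaled ratio of 4.27 with a 95% exact interval of 1.79 to 11.3, and was under 1 FPKM in both.

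Between RGd2 2i and RGd2 2i-p5, *Cidea* fell by 1.15 on the log2 scale (SE 0.25, adjusted p = 0.000502, edgeR), while the median of all genes tested was −0.37, and 1 of 4 genes called lower stands beside 30.2% of all genes. *Trh* was called higher, with 1.77% of all genes in that direction, at a log2 fold change of 0.51 (SE 0.18, adjusted p = 0.0204). Its groups overlapped, and without RGd2 2i replicate 33, the library of the clonal line, the value was 0.20 (adjusted p = 0.188). Without RGd2 2i-p5 replicate 1 it was 0.44 (adjusted p = 0.0828). *Apobec2*, at 0.22 (SE 0.21, adjusted p = 0.422), was called under TMM scaling at 0.56 (adjusted p = 0.0241). *Prickle1* had a log2 fold change of 0.02 (95% interval −0.41 to 0.45, adjusted p = 0.962). Earlier culture in Chiron with LIF may also differ between these conditions, and its part was not tested.

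ETR-tKO in N2B27 and ER-dKO in Chiron differ in both *Tcf3* and medium, and the parts of the 2 cannot be told apart. The libraries of both were used in choosing the genes, so the values are a description. *Prickle1* was 2.82-fold higher in ETR-tKO, at 45.0, 31.1 and 32.9 FPKM against 12.1, 12.9 and 12.8 (log2 fold change 1.50, SE 0.15). *Trh* was lower, at 1161, 838 and 868 FPKM (log2 fold change −0.67, SE 0.17), as was *Cidea*, at 16.4, 20.8 and 19.9 FPKM (log2 fold change −0.67, SE 0.17). *Apobec2* had a log2 fold change of 0.12 (95% interval −0.26 to 0.51), whose sign turned without ETR-tKO replicate 14 (−0.01).

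The clonal RGd2 line stood apart for *Apobec2*. In all 5 RGd2 conditions its library had a lower *Apobec2* FPKM than both parental libraries, 13.2 against 20.1 and 24.2 in 2i and 4.87 against 10.2 and 10.3 at N16h. *Trh* was below both parental libraries in 2 of 5 conditions, at 50.7 against 95.05 and 108 FPKM in 2i and 26.4 against 35.2 and 35.2 at N16h, and above both at N72h. *Prickle1* was below both in 1 condition and above both in 1, and *Cidea* was above both in 3 and below both in 1. With 1 clonal library per condition the difference was not tested, and the line was looked at after its values had been seen. Its 2i library was the shallowest of the series, with 96 counts for *Apobec2* and 420 for *Trh*.

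Across the 11 condition means of log2(FPKM + 0.1), the 4 genes were alike to different degrees. *Cidea* and *Apobec2* had a Pearson r of 0.82 and *Prickle1* and *Trh* of 0.73, whereas *Prickle1* and *Apobec2* had 0.15. The means share libraries and include the conditions that chose the genes, so these are descriptions. Among the 13348 tested genes with at least 1 FPKM in a condition, the closest to *Prickle1* were *Acad8*, an enzyme of valine breakdown (r = 0.95), *Nrarp*, a feedback inhibitor and target of Notch (r = 0.94), and *Fundc1*, a receptor in mitophagy (r = 0.91). The closest to *Cidea* were *Cmc2*, a factor of cytochrome oxidase assembly (r = 0.96), *Xaf1* (r = 0.95) and *Zfp280b* (r = 0.93). The closest to *Apobec2* were *Cnp*, a phosphodiesterase known from myelin (r = 0.98), *Spryd4* (r = 0.97) and *Irak4*, a kinase of Toll-like receptor signalling (r = 0.97), and those to *Trh* were *Osgin2* (r = 0.93), *Ssh2*, a cofilin phosphatase (r = 0.92), and *Pik3c2b*, a lipid kinase (r = 0.91). The amplitude of these partners was often small. *Acad8* ran from 6.64 to 9.49 FPKM and *Osgin2* from 2.42 to 3.04, while *Nrarp* ran from 0.245 to 7.05.

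Relatives of the 4 genes were compared in RbpJ-KO and RGd2. Of the Prickle paralogs, *Prickle2* in RbpJ-KO was at 4.74 ± 0.439 FPKM against 3.44 ± 0.534 (SD, n = 3 each) in 2i and was called only at N16h, at 1.03 ± 0.0545 against 0.359 ± 0.111 FPKM (log2 fold change 1.58, SE 0.20, adjusted p = 8.74e-08, edgeR). *Prickle3* was called in 2i, at 1.45 ± 0.280 against 0.987 ± 0.385 FPKM (log2 fold change 0.60, SE 0.20, adjusted p = 0.0492). At N16h *Prickle3* was under the expression minimum and so was not called, at 0.795 against 0.210 FPKM (log2 fold change 2.06, SE 0.23, adjusted p = 4.94e-09, edgeR). Whether the 2 conditions differ was not tested for either gene. The lipid droplet relatives *Cideb* and *Cidec* stayed at or under 0.167 and 0.207 FPKM in every condition. *Apobec3*, an antiviral deaminase, in 2i was at 18.3 FPKM for RbpJ-KO and 22.1 for RGd2 (log2 fold change −0.33, SE 0.12, adjusted p = 0.0676). Its log2 fold change was −0.01 (SE 0.11, adjusted p = 0.976) at N16h. The receptors of TRH, *Trhr* and *Trhr2*, and the degrading enzyme *Trhde* had at most 3, 3 and 4 counts in any library, and so were not tested.

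Pathway lists, without the 4 genes, were counted in the RbpJ-KO comparisons, where 3.2% of all genes tested were called higher and 3.74% lower in 2i, and 11.7% higher and 2.12% lower at N16h. These lists were drawn up with earlier results of these data known. Of 20 planar cell polarity genes tested, 2 were called higher and 2 lower in 2i, and 5 higher at N16h. *Celsr1*, an atypical cadherin of the pathway, was called in both, at 8.72 ± 1.16 against 4.16 ± 1.20 FPKM in 2i (log2 fold change 1.06, SE 0.14, adjusted p = 4.58e-07, edgeR, n = 3 per group), and *Ptk7*, a co-receptor, was lower in 2i (log2 fold change −0.61, SE 0.11, adjusted p = 6.89e-05). Beside *Prickle2* and *Celsr1*, *Ror2*, *Vangl1* and *Vangl2* were called higher at N16h, with log2 fold changes of 0.76 (SE 0.13), 0.67 (SE 0.12) and 0.50 (SE 0.11), the last 2 being named after their values had been seen. *Fzd7*, a Wnt receptor, was called lower in 2i (log2 fold change −0.36, SE 0.11). The median log2 fold change of the list was −0.18 in 2i and 0.19 at N16h, beside −0.06 and 0.15 over all genes. In 2i, the 4 calls of this list became 2 without RbpJ-KO 2i replicate 30 (edgeR).

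Of 17 lipid droplet genes, 2 were called lower in 2i, *Dgat2*, an enzyme of triglyceride synthesis (log2 fold change −1.18, SE 0.23), and the droplet coat gene *Plin3* (−0.45, SE 0.11). At N16h 2 were called higher, *Abhd5*, an activator of lipolysis (0.76, SE 0.18), and *Plin2*, another coat gene (0.48, SE 0.15), and *Plin3* was called lower (−0.31, SE 0.11), and these 3 calls became 1 without RGd2 N16h replicate 23, RbpJ-KO N16h replicate 19 or RbpJ-KO N16h replicate 21. The list's median was −0.28 in 2i and −0.04 at N16h, beside −0.06 and 0.15 over all genes. Of 3 AID/APOBEC genes tested besides *Apobec2*, 0 were called by edgeR in either comparison, 2 had a negative log2 fold change at an unadjusted p under 0.05 in 2i and 0 at N16h, and DESeq2 called 0 in both. Without RGd2 2i replicate 33 or without RbpJ-KO 2i replicate 28, 1 was called in 2i. Of 6 TRH processing and signalling genes tested, *Pam*, the enzyme that amidates peptides such as TRH, was called lower in 2i (log2 fold change −0.46, SE 0.12, adjusted p = 0.00923), a call that was lost when RGd2 2i replicate 31, RbpJ-KO 2i replicate 29 or RbpJ-KO 2i replicate 30 was left out. At N16h, *Pcsk1*, a prohormone convertase, and *Cpe*, a carboxypeptidase, had log2 fold changes of 0.73 (SE 0.22) and 1.37 (SE 0.32) but were under 1 FPKM, and no gene of the list was called there by edgeR or DESeq2 (2 higher and 1 lower at an unadjusted p under 0.05). Of 7 canonical Notch targets tested, 4 were called higher in 2i and 5 at N16h, with medians of 0.96 and 2.13. The largest values at N16h were those of *Nrarp* (4.63, SE 0.23), *Hey1* (4.42, SE 0.26) and *Hes1* (2.91, SE 0.16), the last 2 being transcriptional repressors. *Dtx1* and *Notch3*, named after their values had been seen, had 1.05 (SE 0.13) and 0.96 (SE 0.14). *Nrarp* was also among the genes with a pattern most like that of *Prickle1*, over conditions that include those that chose *Prickle1*.

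The genes next to the 4 on the chromosome were compared in RbpJ-KO and RGd2. Of the 16 neighbours (the 2 nearest tested genes on each side), 4 were called higher in RbpJ-KO in 2i and 8 at N16h, beside the 3.2% and 11.7% of all genes given above. By edgeR and by DESeq2, 0 were called lower, and 0 had a negative log2 fold change at an unadjusted p under 0.05 in either condition. Next to *Prickle1*, *Pphln1* lies 7201 bases away and had log2 fold changes of 0.06 (SE 0.12) in 2i and 0.34 (SE 0.11, adjusted p = 0.0283) at N16h. *Pus7l*, 926797 bases from *Prickle1* on the other side, was called in both conditions, at 0.84 (SE 0.15, adjusted p = 9.57e-05) and 1.22 (SE 0.14, adjusted p = 2.39e-08), and *Zcrb1*, beyond *Pphln1*, was called at N16h, at 0.73 (SE 0.16). Next to *Apobec2*, *Oard1* lies 1965 bases away with −0.01 (SE 0.15) and 0.27 (SE 0.15), whereas *Unc5cl*, 22173 bases away, was called in both, at 0.70 (SE 0.22, adjusted p = 0.0281) and 1.57 (SE 0.22, adjusted p = 7.31e-07). *Tspo2*, between *Apobec2* and *Unc5cl*, had 2.41 (SE 0.59) at N16h from 0.212 against 0.0394 FPKM and was too low to be called. *Tubb6*, a beta-tubulin gene 22923 bases from *Cidea*, was called in both, at 0.35 (SE 0.11) and 0.54 (SE 0.11). The first tested gene on the higher-coordinate side of *Trh*, 126258 bases away, is *Prickle2*, the paralog of *Prickle1* described above, and *Adamts9*, beyond it, was called in both conditions, at 0.77 (SE 0.16) and 0.82 (SE 0.16). *Rbsn*, the nearest on the other side of *Trh*, was called at N16h, at 0.56 (SE 0.12).

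**Figure D4:**
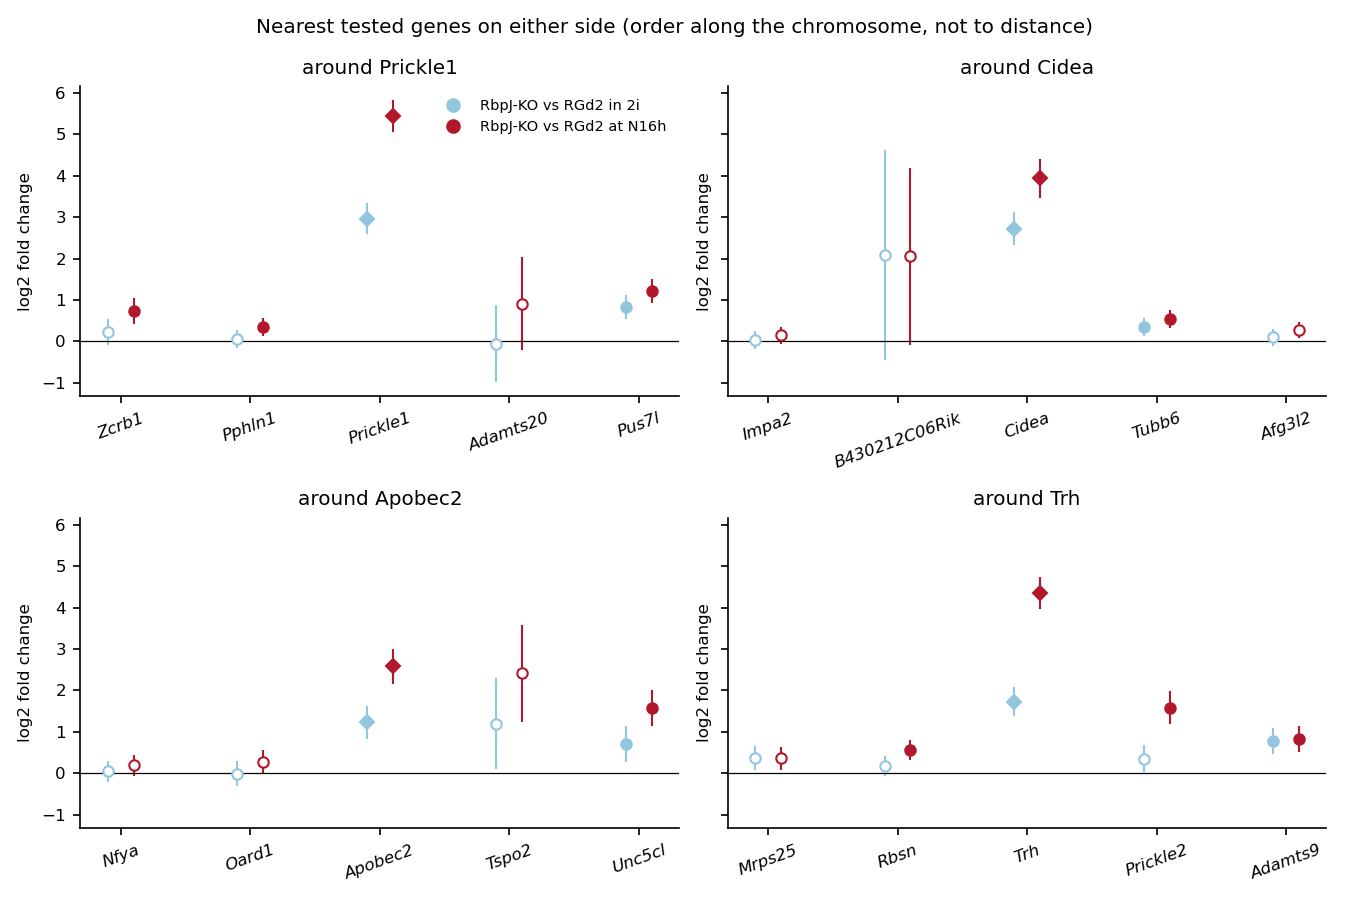
Log2 fold change of RbpJ-KO over RGd2 in 2i (blue) and at N16h (red), with 95% intervals, for each of the 4 genes (diamonds, not tested) and the 2 nearest tested genes on each side in chromosome order. Filled circles were called. *Pus7l*, *Tubb6*, *Unc5cl* and *Adamts9* were called in both conditions.

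Other markers of the tissues for which *Trh*, *Cidea* and *Apobec2* are best known were mostly low. All 10 hypothalamic neuron markers were under 1 FPKM in every condition, *Avp*, *Oxt*, *Crh*, *Hcrt* and *Pmch* had at most 3 counts in any library, and the summed level of the list was between 0.227 and 1.83 FPKM over all libraries, whereas *Trh* was at 22.3 to 1537. Of 10 brown adipocyte markers 9 were under 1 FPKM in every condition, among them *Ucp1*, at no more than 0.170, and the exception was *Cox7a1*, with condition means of 3.54 to 18.3 FPKM. *Cox7a1* was at 15.04 FPKM in RbpJ-KO against 10.1 in RGd2 in 2i and at 11.7 against 7.05 at N16h, where it was called higher by edgeR. The summed level of the brown adipocyte list was 12.5 to 17.3 against 9.30 to 13.003 FPKM in 2i and 10.1 to 14.6 against 6.99 to 9.30 at N16h. Of 10 skeletal muscle markers 7 were under 1 FPKM throughout, including *Myod1* and *Myog*. The summed level of this list was 65.3 to 75.8 FPKM for RbpJ-KO and 105 to 109 for RGd2 in 2i and 44.6 to 49.5 against 61.6 to 81.6 at N16h, and in 2i most of it was *Mylpf*, a myosin light chain, at 70.0 against 106. Extraembryonic endoderm markers were higher on average in RbpJ-KO for 9 of 10 genes in 2i and 8 of 10 at N16h. The summed level was 1.16 to 8.59 against 0.614 to 2.65 FPKM in 2i and 1.96 to 11.4 against 0.954 to 2.41 at N16h. In both conditions the lowest RbpJ-KO sum was within the RGd2 range, and the means leaned on the highest RbpJ-KO library. At N16h the highest means in RbpJ-KO were those of *Gata6*, at 1.33 against 0.403 FPKM, and *Dab2*, at 1.06 against 0.273. Of the 8 tested, 1 was called by edgeR, at N16h. Of trophoblast markers, 4 of 8 were higher on average in 2i and 3 of 8 at N16h. Their sum in 2i was 13.1 to 18.5 against 7.85 to 11.3 FPKM, with *Eomes* at 11.1 against 3.47. In 2i *Cdx2* was lower, at 3.34 against 4.58 FPKM, as were *Ascl2* and *Krt7*. The summed ES cell identity markers were 1252 to 1330 FPKM in RbpJ-KO and 1049 to 1066 in RGd2 at N16h, and 6 of 8 were called higher there. The part of such cells, or of the ES cell state, in the levels of the 4 genes was not tested.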

How the data were processed

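RNA was depleted of ribosomal RNA, mixed with ERCC spike-ins and made into directional paired-end libraries. The values are raw counts per gene and spike-in as the authors deposited them: per the paper's methods, reads were trimmed with Trim Galore, aligned with TopHat2 to GRCm38/mm10 with spike-in sequences added, and counted by featureCounts on the matching strand with Gencode models, keeping unique primary matches. FPKM were computed here from the deposited counts and gene lengths.

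The table has 51826 genes and 92 spike-ins, and 193 gene IDs without a symbol hold 0.02589% of counts. Scaling used the 52 spike-ins seen in all 32 libraries (median of ratios). The 18892 genes kept by filterByExpr were tested with edgeR 4.0.16 (R 4.3.3, quasi-likelihood, two-sided) in a single model with a coefficient per condition, with Benjamini-Hochberg adjustment over all of them. Genes were called at an adjusted p under 0.05 with a mean of at least 1 FPKM in 1 of the groups. The code was tested on simulated data. Counting intervals and the floor of 3 counts cover counting error only. For most RGd2 libraries no source says that the cultures were grown independently, so p-values measure the spread between these libraries. Figures used Python 3.11.15 and matplotlib 3.10.9.

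The 4 genes, the lists and the comparisons were chosen with earlier results of these data known. Other genes named are the targeted genes, the 3 genes most like each in pattern, the 2 nearest tested genes on each side, paralogs and TRH receptors, cell type markers and, per list, up to 3 called genes per direction by size. Alternatives were TMM and median-of-ratios scaling on genes, total spike-in counts, DESeq2 1.42.0, a fit to the compared libraries alone, other filters, a block for clonal line, and leaving out each library. Mutant lines sampled in 2i and at N16h pair those libraries by line. Deviations from group means correlated for the same line at 0.032 to 0.109 in RbpJ-KO and at 0.007 and 0.016 in Etv5-KO, and the block changed no call of the 4 genes. Comparisons between RbpJ mutant groups were fitted in the same way but are given without p-values. The authors' ChIP data were not analysed here.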

Additional observations from a re-analysis of the deposited data

Results flagged for a closer look

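The response to 16 h without inhibitors (N16h over 2i, log2 of normalised counts) differed between Etv5-KO and RGd2 for *Trh*, by 3.31 (SE 0.27, adjusted p = 4.29e-12, edgeR), and for *Apobec2*, by 1.76 (SE 0.31, adjusted p = 5.57e-05, edgeR). Both were picked out because the difference between the groups was itself tested and passed. *Trh* rose in Etv5-KO (1.65) and fell in RGd2 (−1.66), and *Apobec2* had 0.31 in Etv5-KO and fell in RGd2 (−1.46). The decline of RGd2 is part of both differences, and a low RGd2 level at N16h helps a gene to be chosen, so the choice of the genes favours higher values and these tests are not independent of it. Over the fits that left out 1 library, the difference was between 2.96 and 3.62 for *Trh* and between 1.43 and 1.99 for *Apobec2*.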

How the results depend on the processing

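Of the values recomputed under the alternatives, 1192 kept their direction, their side of the threshold or their size, and 14 turned in sign. Those 14 were for results that did not pass the test or, for *Apobec2* between ER-dKO and ETR-tKO, were described without one. A further 32 moved in size or in the number of genes called, 9 gained a call and 4 lost one. DESeq2 and the block for clonal line changed no call of the 4 genes. By DESeq2, 3 lipid droplet genes were called lower in RbpJ-KO in 2i and 9 neighbours higher at N16h, against 2 and 8 by edgeR. With the block, which pairs libraries of a line, *Trh* in Etv5-KO between 2i and N16h was 1.73 (adjusted p = 7.59e-09, edgeR).

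Among the descriptive differences, TMM and median-of-ratios scaling gave 5.28 and 5.29 for *Prickle1* in RbpJ-KO at N16h, 3.83 and 3.79 for *Prickle1*, 0.46 and 0.42 for *Apobec2* and 3.34 and 3.30 for *Trh* in ER-dKO against RGd2 2i-p5, and 5.29 and 5.27 for *Prickle1* and 2.63 and 2.61 for *Trh* in ETR-tKO against RGd2 2i-p5. Leaving out 1 library gave 2.68 to 3.45 for *Prickle1* in RbpJ-KO in 2i, the highest without RGd2 2i replicate 31, and 7.53 to 8.02 for the fitted value of *Cidea* in ETR-tKO against RGd2 N72h.

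Without the minimum of 1 FPKM, *Prickle1* between RGd2 2i and N16h (−1.04) and *Cidea* between N16h and N72h (−2.53) and between N72h and CH-p2 (2.04) would be called. The first had −0.55 (adjusted p = 0.0785, edgeR) without RGd2 2i replicate 31. The last had 1.72 (adjusted p = 0.0703, edgeR) without RGd2 N72h replicate 9 and 1.57 (adjusted p = 0.157, edgeR) without the clonal line. Between N16h and N72h, *Trh* was −0.14 without the clonal RGd2 line, a setting chosen after seeing the data, and −0.0713 to 0.14 leaving out 1 library. Between RGd2 2i and 2i-p5, *Prickle1* was −0.0122 with the total spike-in count and −0.26 to 0.51 leaving out 1 library. There *Apobec2* was called under TMM (0.56) and median-of-ratios scaling (0.57), and was −0.0117 to 0.56 leaving out 1 library. *Trh* lost its call with only the libraries compared (0.53) and without the clonal line (0.21), and was 0.20 to 0.86 leaving out 1 library. *Apobec2* between ER-dKO and ETR-tKO was −0.00989 to 0.33 leaving out 1 library.

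For the difference between the Etv5-KO and RGd2 responses, *Prickle1* was called under TMM (−1.22) and median-of-ratios scaling (−1.20), and was −1.18 to −0.42 leaving out 1 library. *Cidea* was 0.0149 without the clonal line and −0.38 to 0.16 leaving out 1 library.

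In RbpJ-KO in 2i, 2 planar cell polarity genes were called with only the libraries compared and without the low-count filter, and 2 to 5 leaving out 1 library. With only the libraries compared, 1 lipid droplet gene and 0 TRH genes were called, against 0 to 1 TRH genes leaving out 1 library. For AID/APOBEC genes 1 was called under TMM, median-of-ratios, total spike-in scaling and without the clonal line, and 0 to 1 leaving out 1 library. At N16h, 1 to 2 lipid droplet genes were called leaving out 1 library, and 2 TRH genes without the minimum of 1 FPKM. The cause of these changes was not tested. At N72h the 8 counts of *Cidea* and the 9 to 14 counts per library of *Apobec2* limit the precision.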
